A study of Homo sapiens with 6 samples.

Results

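Ubiquitin-conjugating enzymes (E2 enzymes, gene names beginning UBE2) and ubiquitin-specific proteases (USP deubiquitinases) were examined in 2 FPKM tables from U2OS, an established human osteosarcoma cell line. The genes were chosen by name: every gene name without a hyphen that begins with UBE2, or with USP and a digit, apart from 3 genes not analysed here. This gave 87 of the 17721 genes listed in either table, made up of 30 E2 enzymes, 47 USP deubiquitinases, 9 pseudogenes and USP6NL. The name of USP6NL matches the rule, but the protein is a GTPase-activating protein for RAB5 and not a deubiquitinase.

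The series covers 6 RNA samples from U2OS cells. Cells carrying a short hairpin RNA against DNMT1 (shDNMT1, genotype DNMT1 knockdown) gave 1 input and 2 samples of RNA pulled down with a mutant of NSun2. Control cells (shNC, genotype WT) likewise gave 1 input and 2 such pull-downs. The protocol states that a plasmid for the NSun2 mutant went into cells called U6 and into shDNMT1 cells, and the labels do not say how U6 relates to shNC. DNMT1 is the maintenance DNA methyltransferase, and NSun2 is a cytosine methyltransferase of RNA.

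Neither table names a sample, so no value below belongs to knockdown or control cells, or to input or pull-down RNA. They are called here the longer table (16824 genes) and the shorter table (15167 genes). Each gene has 1 value in each, with no replicate, SD or test, and differences are described by size only. FPKM is a fragment count scaled by transcript length and by the library total. The log2 ratio given is log2((longer + 1)/(shorter + 1)), with a pseudocount of 1 FPKM that shrinks the ratios of low genes. DNMT1 was listed at 9.36 FPKM in the longer table and 23.3 FPKM in the shorter table, and NSUN2 at 1147 and 559 FPKM. Of 8 osteoblast and bone genes, 4 were listed in the longer table and 2 in the shorter. The 2 in both were ALPL, at 38.0 FPKM in the longer table and 78.4 FPKM in the shorter, and COL1A1, at 0.45 and 3.04 FPKM. RUNX2, an osteoblast transcription factor, was listed in the longer table alone at 0.81 FPKM, and SP7, COL1A2, SPP1 and IBSP had no value. Of 6 markers of other cell types 2 were listed in each table. These were the epithelial CDH1, at 0.39 FPKM in the longer table and 8.42 FPKM in the shorter table, and EPCAM, at 0.55 and 2.20 FPKM. The mesenchymal marker VIM differed the other way, at 407 and 262 FPKM, and shared its locus with VIM-AS1. The part of these differences in the results below was not tested.

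Ubiquitin is attached to proteins in a relay. An E1 enzyme activates it, an E2 enzyme carries it on a catalytic cysteine, and an E3 ligase brings the loaded E2 to the target. Many E2 enzymes determine whether a first ubiquitin is attached or a chain is built, and through which lysine of ubiquitin the chain grows. A few carry relatives of ubiquitin such as NEDD8 or ISG15. The USP family is the largest family of deubiquitinases, cysteine proteases that cut ubiquitin off again.

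Of the E2 enzymes, 29 of 30 were in both tables and all 29 had a mean of at least 1 FPKM. Of the USP genes, 44 of 47 were in both tables and 42 reached that level. USP6NL and 1 of the 9 pseudogenes reached it too, which made 73 genes. These are compared below with the 11416 genes that passed the same filter.

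E2 transcripts stood higher in the longer table almost throughout, while USP transcripts were divided. Of the 29 E2 enzymes 25 were higher in the longer table and 4 lower, where 57.5% of all genes were higher and 42.5% lower. Of the 42 USP genes 23 were higher and 19 lower, or 21 and 21 once 0.05 was subtracted, the median log2 ratio of all 14270 genes in both tables without the filter. The median log2 ratio was 0.42 for E2 enzymes, 0.08 for USP genes and 0.09 for all genes that passed the filter. At least 1.5-fold higher on this scale were 11 E2 enzymes and 2 USP genes, where 13.8% of all genes were. No E2 or USP gene was at least 1.5-fold lower, where 7.84% of all genes were. Only UBE2K and UBE2E3 were at least 2-fold higher, against 2.4% of all genes, and no member was at least 2-fold lower, against 1.82%. Summed over the genes, E2 transcripts came to 722 FPKM in the longer table and 564 FPKM in the shorter, and USP transcripts to 505 and 492 FPKM. The sum over all genes that passed the filter was lower in the longer table, at 522139.6 FPKM against 575744 FPKM in the shorter. That held only for genes with a mean of 20 FPKM or more, at 466336 against 524560 FPKM. From 5 to 20 FPKM the sums were 43872 against 40207 FPKM, and from 1 to 5 FPKM 11931 against 10977 FPKM.

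**Figure D1:**
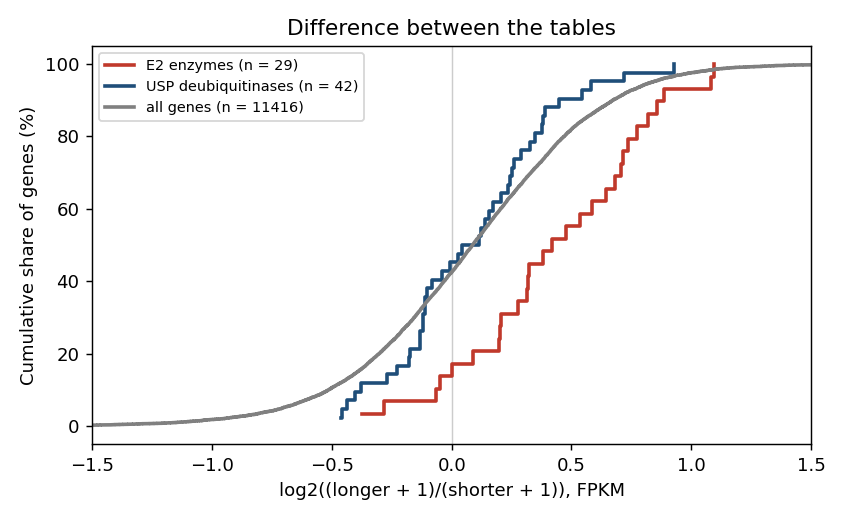
Cumulative share of genes (percent) against the log2 ratio of the longer over the shorter table, for 29 E2 enzymes, 42 USP deubiquitinases and 11416 genes with a mean of at least 1 FPKM. The E2 curve lies to the right of the others over most of the range and meets that of all genes near the top, with a median of 0.42 against 0.08 for USP genes and 0.09 for all genes.

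E2 transcripts were also the class with the higher median FPKM. Their median level was 17.9 FPKM in the longer table and 14.2 FPKM in the shorter, against 4.68 and 4.42 FPKM for USP genes and 8.18 and 7.32 FPKM for all genes. The highest member in both tables was UBE2S, at 77.7 FPKM in the longer table and 80.5 FPKM in the shorter. UBE2M followed at 77.4 and 77.2 FPKM, and the highest USP gene was USP5 at 63.8 and 74.95 FPKM. The classes also differed in ratio at similar levels. Among genes with a mean of 5 to 20 FPKM, the median log2 ratio was 0.65 for 11 E2 enzymes, 0.04 for 12 USP genes and 0.14 for all 4002 genes. The gap was smaller at other levels. From 1 to 5 FPKM the medians were 0.48 for 5 E2 enzymes, 0.12 for 23 USP genes and 0.10 for all genes. At 20 FPKM or more they were 0.32 for 13 E2 enzymes, 0.04 for 7 USP genes and 0.02 for all genes.

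**Figure D2:**
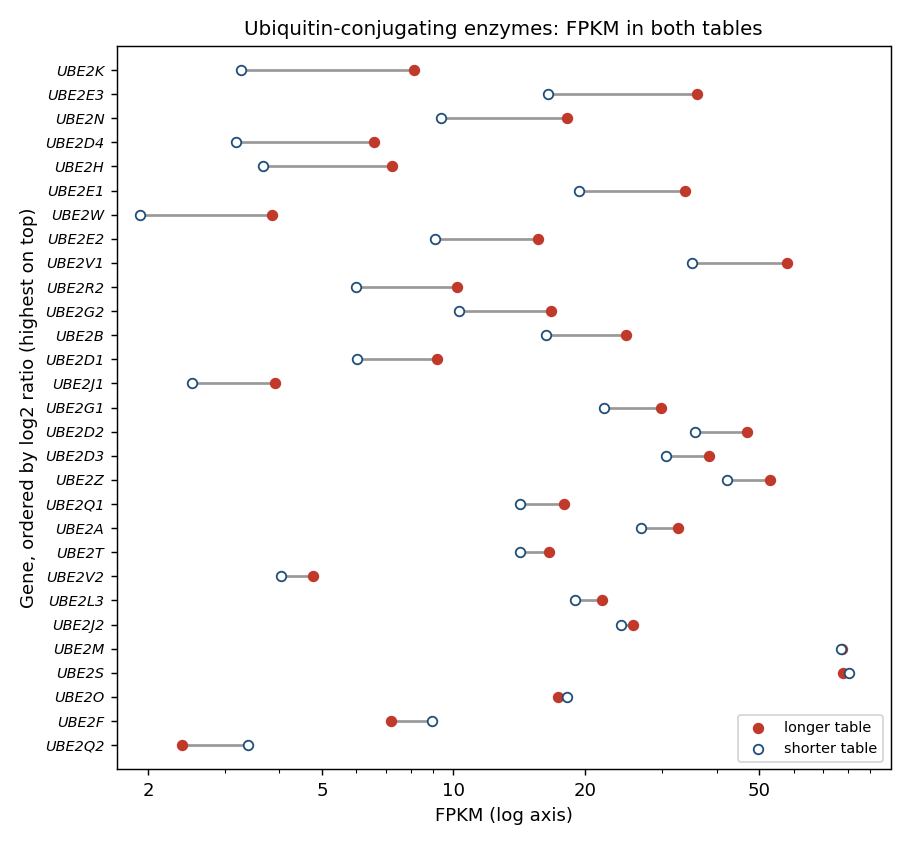
FPKM (log axis) of the 29 E2 enzymes in the longer table (filled red) and the shorter table (open blue), ordered by log2 ratio with the highest on top. The filled point lies to the right for 25 genes, and the widest gap is that of UBE2K at 8.12 and 3.27 FPKM.

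The E2 enzymes that start chains or transfer single ubiquitins for many E3 ligases were all higher in the longer table, 8 of 8, with a median log2 ratio of 0.73. Of these 8, 5 were past 1.5-fold. Among all genes 57.5% were higher and 13.8% past 1.5-fold higher, with a median of 0.09. UBE2E3 was listed at 36.0 FPKM in the longer table and 16.5 FPKM in the shorter, a log2 ratio of 1.08 (ENSG00000170035; chromosome 2, 180967248 to 181399559, hg38). UBE2E1 was listed at 33.8 and 19.3 FPKM (log2 ratio 0.77), and UBE2E2 at 15.6 and 9.09 FPKM (0.72). UBE2E2 was thus the lowest of this family, which works with RING ligases, in both tables. UBE2E2 and UBE2E1 lie near each other on chromosome 3, at 23203020 to 23591793 and 23804024 to 23891316, and neither shares its locus with another listed gene. The UBE2D family, broadly used initiators, held the highest transcript of the group in UBE2D2, at 46.9 FPKM in the longer table and 35.7 FPKM in the shorter. UBE2D3 followed at 38.5 and 30.6 FPKM, with the lowest log2 ratio of the group at 0.32. UBE2D1 was listed at 9.16 and 6.01 FPKM. UBE2D4 had the highest ratio of its family, 0.86, at 6.58 and 3.18 FPKM. Its locus also held POLR2J4 and other genes, so fragments may have been divided between them. UBE2W, which attaches ubiquitin to the amino end of proteins, was listed at 3.85 and 1.92 FPKM and shared its locus with STAU2, at 2.49 and 3.19 FPKM.

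The members that build chains through lysine 48, the linkage that directs proteins to the proteasome, were all 4 higher in the longer table. Their median log2 ratio was 0.66, and 3 were past 1.5-fold. For all genes the shares were 57.5% higher and 13.8% past 1.5-fold higher, with a median of 0.09. UBE2K had the highest ratio of all members, 1.09, with 8.12 FPKM in the longer table and 3.27 FPKM in the shorter (ENSG00000078140; chromosome 4, 39698044 to 39782792). UBE2R2, a partner of cullin ligases, was listed at 10.2 and 5.97 FPKM. Its relative CDC34, which the name rule leaves out, went the other way, at 38.1 and 50.8 FPKM (log2 ratio -0.41). UBE2G2, which serves degradation from the endoplasmic reticulum (ER), was listed at 16.7 and 10.3 FPKM. UBE2G1 had the highest FPKM of the 4 members, at 29.9 and 22.1 FPKM, with the lowest ratio at 0.42. UBE2S, which extends lysine 11 chains for the anaphase-promoting complex, was slightly lower in the longer table (log2 ratio -0.05) and shared its locus with RPL28, at 352 and 403 FPKM.

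Chains through lysine 63, used in signalling and DNA repair, are made by UBE2N paired with UBE2V1 or UBE2V2, which lack the catalytic cysteine. UBE2N was listed at 18.2 FPKM in the longer table and 9.37 FPKM in the shorter (log2 ratio 0.89), and NUDT4 at the same locus at 19.5 and 11.8 FPKM. UBE2V1 was listed at 58.0 and 35.2 FPKM (0.71). The readthrough transcript TMEM189-UBE2V1 at its locus went the other way, with 2.82 and 4.62 FPKM. UBE2V2 was listed at 4.77 and 4.03 FPKM (0.20), so UBE2V1 had the higher FPKM of the partners in both tables.

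Outside the enzymes of chain initiation and of lysine 48 and lysine 63 chains were 14 other E2 enzymes, UBE2S among them. The role groups were planned one by one, and this pooled split was not planned. Of the 14 other enzymes 10 were higher in the longer table, with a median log2 ratio of 0.20 and 1 past 1.5-fold. The shares over all genes were 57.5% higher and 13.8% past 1.5-fold higher, with a median of 0.09. UBE2B, with UBE2A a partner of the ligase RAD18, was listed at 24.9 and 16.3 FPKM (log2 ratio 0.58), while UBE2A was listed at 32.7 and 26.8 FPKM (0.28). UBE2T, the E2 of the Fanconi anaemia pathway, was listed at 16.6 and 14.2 FPKM. Of the ER-anchored pair, UBE2J1 was listed at 3.90 and 2.52 FPKM (0.48) and UBE2J2 at 25.8 and 24.2 FPKM (0.09). UBE2L3, which loads HECT and RBR ligases, was listed at 21.9 and 19.0 FPKM. UBE2H, the E2 of the CTLH ligase, stood out from its group at 7.23 and 3.67 FPKM (0.82). UBE2Q1 was listed at 17.9 and 14.2 FPKM, but UBE2Q2 at 2.39 and 3.39 FPKM, the lowest ratio of any E2 at -0.37. UBE2O, which acts as E2 and E3 in the same protein, was listed at 17.4 and 18.2 FPKM.

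Among the E2 enzymes of ubiquitin-like modifiers, 2 of the 3 at 1 FPKM or more were higher in the longer table, against 57.5% of all genes. Their median was 0.003, against 0.09 for all genes, and none was past 1.5-fold, against 13.8% higher and 7.84% lower. UBE2Z, which carries FAT10 as well as ubiquitin, was listed at 53.1 FPKM in the longer table and 42.3 FPKM in the shorter (log2 ratio 0.32). The NEDD8 enzymes were UBE2M, which was nearly equal (ratio 0.003), and UBE2F, at 7.19 and 8.94 FPKM (-0.28). UBE2F shared its locus with SCLY, at 8.45 and 9.31 FPKM. UBE2L6, the E2 of ISG15, was listed in the longer table alone, at 0.078 FPKM.

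DNMT1 copies methylation at CG dinucleotides, so the promoter sequence of members with a large difference is shown with every CG in capitals. Each run is the 250 bases before the transcript start, from RefSeq on GRCh38.p14, read 5′ to 3′ on the gene's strand, which is the plus strand for all 6. The UBE2E family and UBE2K are shown because they were higher in the longer table, USP8 because it had the highest ratio among USP genes, and USP47 as a gene of low ratio. They lie at chr2:180980110-180980359 (UBE2E3), chr3:23805705-23805954 (UBE2E1), chr3:23202848-23203097 (UBE2E2), chr4:39697886-39698135 (UBE2K), chr15:50424155-50424404 (USP8) and chr11:11841722-11841971 (USP47). The runs of UBE2E3, UBE2E1 and USP47 lie inside the locus listed with the FPKM values, and those of UBE2E2, UBE2K and USP8 overlap its start. The RefSeq start is thus not the start of the listed locus, and a run need not precede the transcripts counted.
UBE2E3: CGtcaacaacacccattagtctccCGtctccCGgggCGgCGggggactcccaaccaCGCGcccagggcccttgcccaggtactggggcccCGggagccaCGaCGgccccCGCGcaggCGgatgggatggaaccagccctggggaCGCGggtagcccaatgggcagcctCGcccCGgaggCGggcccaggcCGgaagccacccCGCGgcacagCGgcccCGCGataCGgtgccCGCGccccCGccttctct
UBE2E1: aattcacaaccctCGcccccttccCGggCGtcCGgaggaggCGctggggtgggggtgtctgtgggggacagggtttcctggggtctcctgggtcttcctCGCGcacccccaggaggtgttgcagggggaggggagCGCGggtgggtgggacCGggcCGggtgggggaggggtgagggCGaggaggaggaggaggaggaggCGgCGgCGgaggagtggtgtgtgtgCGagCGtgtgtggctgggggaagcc
UBE2E2: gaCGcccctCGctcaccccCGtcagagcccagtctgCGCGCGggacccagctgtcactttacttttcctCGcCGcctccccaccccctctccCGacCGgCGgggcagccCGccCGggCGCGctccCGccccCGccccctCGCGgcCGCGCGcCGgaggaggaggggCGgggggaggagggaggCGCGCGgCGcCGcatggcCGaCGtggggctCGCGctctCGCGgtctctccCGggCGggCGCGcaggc
UBE2K: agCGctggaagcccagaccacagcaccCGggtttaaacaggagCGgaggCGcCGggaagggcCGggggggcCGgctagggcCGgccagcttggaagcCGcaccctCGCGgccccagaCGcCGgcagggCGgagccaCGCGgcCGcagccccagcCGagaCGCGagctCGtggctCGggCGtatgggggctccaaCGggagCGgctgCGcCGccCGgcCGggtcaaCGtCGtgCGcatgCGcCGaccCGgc
USP8: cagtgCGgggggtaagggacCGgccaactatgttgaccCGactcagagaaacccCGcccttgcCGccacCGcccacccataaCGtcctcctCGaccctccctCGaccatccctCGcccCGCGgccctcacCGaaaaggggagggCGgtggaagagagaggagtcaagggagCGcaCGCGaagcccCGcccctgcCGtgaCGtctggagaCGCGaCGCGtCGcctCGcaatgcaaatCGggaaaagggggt
USP47: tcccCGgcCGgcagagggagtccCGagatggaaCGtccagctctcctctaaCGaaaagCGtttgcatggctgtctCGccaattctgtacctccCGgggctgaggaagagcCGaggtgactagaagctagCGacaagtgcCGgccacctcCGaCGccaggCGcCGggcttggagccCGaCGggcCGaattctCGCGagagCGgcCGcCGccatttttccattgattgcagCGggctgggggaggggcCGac

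The number of CG dinucleotides in these 250 bases was 28 for UBE2E3, 17 for UBE2E1, 39 for UBE2E2 and 35 for UBE2K. It was 27 for USP8 and 25 for USP47. Of all 27305 promoters in the RefSeq table, 38.8% held at least as many as UBE2E1 and 2.51% at least as many as UBE2E2. Their median was 11, and they were not limited to genes that passed the filter. A promoter was matched for 24 of the 29 E2 enzymes, with a median of 28 CG dinucleotides. Across these 24 genes the Spearman correlation of CG number with the log2 ratio was 0.01, given as a description. Of the 42 USP genes 33 were matched, or 78.6%. A summary needed a promoter for at least 80% of a set, so it is void for USP genes. It is also void for all genes that passed the filter, of which 73.6% were matched. The methylation of these bases was not measured in the tables.

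**Figure D3:**
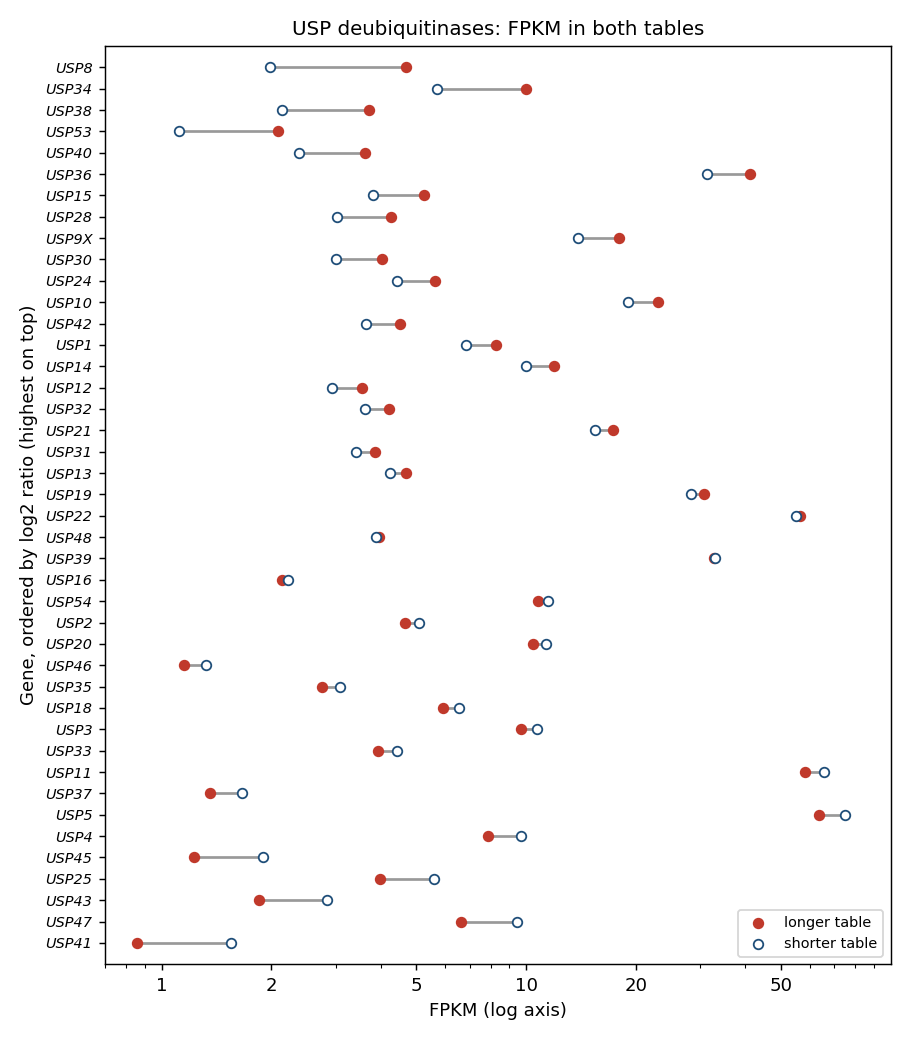
FPKM (log axis) of the 42 USP deubiquitinases in the longer table (filled red) and the shorter table (open blue), ordered by log2 ratio with the highest on top. The order of the points changes partway down, with 23 genes higher and 19 lower in the longer table, and USP8 on top at 4.67 and 1.98 FPKM.

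USP8 and USP34 were the USP genes past 1.5-fold. USP8, which deubiquitinates receptors on endosomes, was listed at 4.67 FPKM in the longer table and 1.98 FPKM in the shorter, a log2 ratio of 0.93 (ENSG00000138592; chromosome 15, 50424380 to 50546708). The other genes of endosomal and receptor traffic differed by less, with log2 ratios from -0.13 to 0.26. USP10, a partner of G3BP1, was listed at 23.0 and 19.0 FPKM and USP32 at 4.21 and 3.62 FPKM. USP20 and its paralog USP33 were listed at 10.5 and 11.4 FPKM and at 3.93 and 4.41 FPKM (the lowest ratio of the group, -0.13), and USP2 at 4.65 and 5.07 FPKM. USP34, a very large enzyme of Wnt signalling, was listed at 10.0 FPKM in the longer table and 5.70 FPKM in the shorter (0.72). Its locus also held AHSA2, at 3.97 and 4.66 FPKM. The large enzymes USP9X and USP24 were listed at 18.0 and 13.9 FPKM (0.35) and at 5.64 and 4.43 FPKM (0.29).

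The enzymes that recycle ubiquitin from unanchored chains or at the proteasome were USP5, at high FPKM, and USP14 and USP13 at lower FPKM. USP5 was lower in the longer table (log2 ratio -0.23), whereas USP14, which sits on the proteasome, was listed at 12.0 and 10.0 FPKM (0.23). USP13, a paralog of USP5, was listed at 4.69 and 4.23 FPKM.

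Of the USP genes that act on histones and chromatin, 4 of 6 at 1 FPKM or more were higher in the longer table, with a median of 0.10. This lies near all genes, of which 57.5% were higher, with a median of 0.09. USP22, the deubiquitinase of the SAGA coactivator, was listed at 56.5 FPKM in the longer table and 54.9 FPKM in the shorter. Its paralogs USP51, at 0.035 and 0.15 FPKM, and USP27X, at 0.14 FPKM in the longer table alone, were near the floor. USP36, a nucleolar enzyme, had the highest ratio of the group at 41.3 and 31.3 FPKM (0.39). USP3, which removes ubiquitin from histones, had the lowest at 9.67 and 10.7 FPKM (-0.13). USP21 was listed at 17.3 and 15.5 FPKM, USP42 at 4.52 and 3.65 FPKM and USP16 at 2.13 and 2.22 FPKM. USP49 was below the filter, at 0.68 and 0.45 FPKM.

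Genes of DNA repair, replication and the cell cycle were higher in 4 and lower in 5 of 9, where 57.5% of all genes were higher. Their median was -0.11, against 0.09 for all genes. USP11 had the highest FPKM of the group, at 58.3 FPKM in the longer table and 65.9 FPKM in the shorter. USP47, which acts on DNA polymerase beta, had the lowest ratio of the group at 6.62 and 9.47 FPKM (-0.46; chromosome 11, 11841423 to 11959323). USP28, an enzyme that stabilises MYC, had the highest at 4.25 and 3.04 FPKM (0.38). Its paralog USP25 differed in the other direction, at 3.98 and 5.59 FPKM (-0.40). USP1, which acts on FANCD2 and PCNA, was listed at 8.28 and 6.84 FPKM (0.24), close to UBE2T of the same pathway at 0.20. USP12 and USP46, which share the cofactor WDR48 with USP1, were listed at 3.55 and 2.94 FPKM and at 1.15 and 1.33 FPKM. USP45, USP37 and USP48 had ratios of -0.38, -0.18 and 0.03.

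The splicing-linked USP39, an inactive member of the family that belongs to the tri-snRNP, was listed at 32.8 FPKM in the longer table and 33.0 FPKM in the shorter. USP15 was listed at 5.26 and 3.81 FPKM (log2 ratio 0.38), and its paralog USP4 at 7.86 and 9.69 FPKM (-0.27). USP30, which opposes mitophagy at the outer membrane of mitochondria, was listed at 4.03 and 3.01 FPKM, and USP35 at 2.75 and 3.08 FPKM. USP19, with an ER-anchored form, was listed at 30.8 and 28.4 FPKM.

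USP18, the protease that removes ISG15, was listed at 5.93 FPKM in the longer table and 6.53 FPKM in the shorter. USP41 had the lowest ratio of all members, -0.46, at 0.86 and 1.55 FPKM. It is a close copy of USP18, so the upstream counting could have divided fragments between them, and its value is uncertain. ISG15 itself was listed at 158 and 198 FPKM.

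The other USP genes included paralog pairs whose ratios had opposite signs. USP53 was listed at 2.08 FPKM in the longer table and 1.116 FPKM in the shorter (log2 ratio 0.54), and USP54 at 10.8 and 11.5 FPKM (-0.08). The small ratio of USP54 is uncertain, since its locus also held PPP3CB, at 12.8 and 6.28 FPKM. USP31 was listed at 3.86 and 3.41 FPKM (0.14), and USP43 at 1.84 and 2.84 FPKM (-0.43). USP38 had the highest ratio of this group at 3.71 and 2.15 FPKM (0.58), and USP40 was listed at 3.61 and 2.38 FPKM. USP17L2 and USP17L7, near-identical copies that share a locus on chromosome 8, were listed in the longer table alone at 0.23 and 0.079 FPKM.

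Pseudogenes were low. UBE2SP2 passed the filter, at 1.24 FPKM in the longer table and 1.05 FPKM in the shorter, and UBE2SP1 was listed at 0.98 and 0.24 FPKM. Both resemble UBE2S (77.7 and 80.5 FPKM), so misassigned fragments could enter their values. USP32P1 was listed in the shorter table alone at 0.82 FPKM, and USP17L6P likewise at 0.24 FPKM. UBE2FP1 and USP32P3 were listed in the longer table alone, at 0.32 and 0.22 FPKM. UBE2Q2P1, UBE2Q2P2 and USP32P2 had 1.04 FPKM or less in both tables. USP6NL was listed at 1.85 and 2.39 FPKM.

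The ratio between the tables varies with gene density, here the count of other listed genes whose start lies no more than 1 Mb away. Among all genes with a mean of at least 1 FPKM the median log2 ratio was 0.26 in the sparsest of 5 classes and -0.13 in the densest. USP genes lay in sparser regions (median 17.5 neighbours) than E2 enzymes (median 28). The E2 median was above that of all genes in each class, at 0.63 over 6 genes in the sparsest and 0.20 over 4 genes in the densest. The USP median was 0.10 over 12 genes in the sparsest class and -0.16 over 4 genes in the densest. With each class median subtracted, 24 of 29 E2 enzymes and 18 of 42 USP genes were above 0, and the medians were 0.31 and -0.02. Within the E2 enzymes the Spearman correlation of the ratio with density was -0.52 (n = 29), within USP genes -0.21 (n = 42) and over all genes -0.30 (n = 11416). These correlations describe genes that share the same tables, and carry no test.

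**Figure D4:**
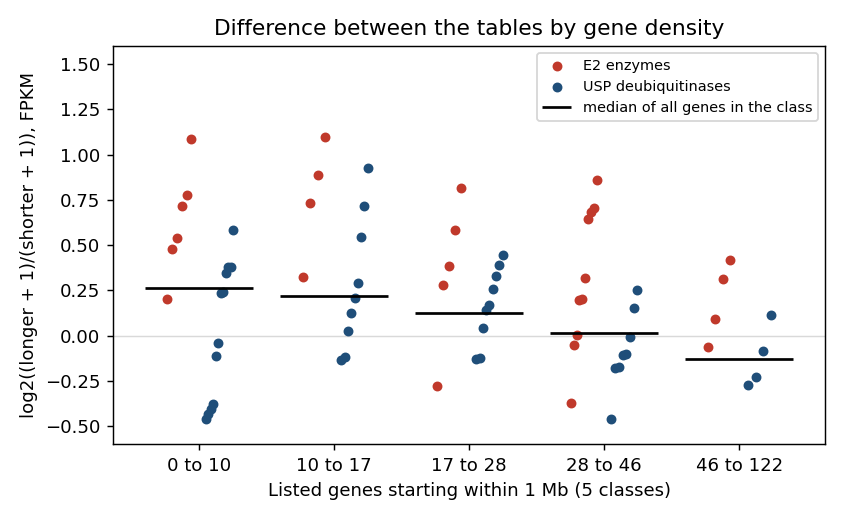
Log2 ratio of the longer over the shorter table for E2 enzymes (red) and USP deubiquitinases (blue) in 5 classes of gene density, with the median of all genes in each class as a black line. Of the 29 E2 enzymes 24 lie above the line of their class, and of the 42 USP genes 18 do.

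Shared loci bear on single values. Of the 30 E2 enzymes 10 shared their locus string with another identifier, as did 17 of the 47 USP genes, which is 33.3% and 36.2%, against 47.5% of all genes. Among the 19 E2 enzymes alone at their locus 18 were higher in the longer table, with a median of 0.48. Among the 28 such USP genes with at least 1 FPKM 17 were higher, with a median of 0.14. Of all genes alone at their locus 59.2% were higher, with a median of 0.11, so the USP count lies close to that share.

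The rest of the pathway was described with lists of other genes. Of 8 E1 enzymes at 1 FPKM or more, 7 were higher in the longer table, with a median log2 ratio of 0.46 and 3 past 1.5-fold. UBA7 was below that level, at 0.30 and 1.10 FPKM (log2 ratio -0.69). For comparison with these lists, 57.5% of all genes were higher and 13.8% past 1.5-fold higher, with a median of 0.09. UBA6, which activates ubiquitin and FAT10 and loads UBE2Z, had the highest ratio at 6.20 FPKM in the longer table and 3.62 FPKM in the shorter. UBA1, the main E1 of ubiquitin, had the lowest of the 8 at 299 and 327 FPKM. Of 10 genes of ubiquitin and its relatives 8 were higher, with none past 1.5-fold. SUMO2 had the highest ratio at 51.0 and 39.6 FPKM, and the polyubiquitin gene UBB was listed at 753 and 598 FPKM. Of 8 E2 enzymes and related proteins with other names, TSG101, UEVLD and AKTIP among them, 5 were higher, with a median of 0.42. ATG10, an E2 of autophagy, had the highest ratio at 4.56 and 2.26 FPKM, and shared its locus with RPS23. CDC34, a cullin partner related to UBE2R2, had the lowest at 38.1 and 50.8 FPKM.

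A further list held deubiquitinases of other names and related proteins such as PAN2, USPL1 and COPS5. Among its 28 genes at 1 FPKM or more, 18 were higher and 10 lower in the longer table. Their median was 0.15, with 4 past 1.5-fold higher and 2 past 1.5-fold lower. These counts lie near the shares of all genes, of which 57.5% were higher, 13.8% past 1.5-fold higher and 7.84% past 1.5-fold lower. STAMBPL1 had the highest ratio, at 3.89 FPKM in the longer table and 0.49 FPKM in the shorter, and its locus also held FAS and ACTA2. STAMBP, an endosomal enzyme of the same family, was listed at 3.86 and 1.18 FPKM. JOSD2 had the lowest ratio at 6.03 and 10.6 FPKM. Of 7 cofactors 5 were higher, with a median of 0.22 and 3 past 1.5-fold higher. ENY2, which serves USP22, had the highest ratio at 5.27 and 2.99 FPKM, and WDR48 was listed at 2.00 and 0.91 FPKM. G3BP1, the partner of USP10, was listed at 45.4 and 28.7 FPKM. ATXN7, which ties USP22 to SAGA, had the lowest ratio at 2.34 and 3.78 FPKM.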

How the data were processed

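The deposited tables give FPKM per gene, calculated by the authors, with a gene identifier, a name and a locus, per the file headers. Build hg38 and the tools MACS 1.4.2, BWA 0.7.13 and cutadapt 1.12 are listed in the submitters' processing notes, with no role given. The tool that made FPKM, and whether libraries were pooled, are not given in the sources used here. No column names a sample, so the planned contrasts of samples were not made and the plan for values without replicates was used. Absolute depth is unknown, and the longer table listed 5403 genes below 1 FPKM against 3740 in the shorter.

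Log2 ratios used a pseudocount of 1 FPKM and genes in both tables with a mean of at least 1 FPKM. Every member may be named. The rule asked for full values of those at least 2-fold apart and of the highest level, highest ratio and lowest ratio of each role group, and the levels of other members are given beside them. Paralogs were named by textbook kinship, because the protein sequences planned for an identity rule were not used here. Members and lists were chosen with earlier results of these data known. Locus starts are counted from 0 in the tables, and 1 was added. After that 1689 unshared starts equalled RefSeq, against 139 as given. Genes of equal density at a class border were placed in file order. Calculations were tested on simulated data and used Python 3.11.15, pandas 2.3.3, numpy 2.4.6 and scipy 1.17.1, with figures from matplotlib 3.10.9.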

Additional observations from a re-analysis of the deposited data

How the results depend on the processing

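No paired analysis was possible because no FPKM column can be tied to a replicate, and replicates could not be left out for the same reason. Summing identifiers of 1 gene name changed nothing, since no member had 2. Of 154 counts and medians recomputed, 124 stayed within 1.5 times (counts) or 0.1 (medians) of the values reported. Density classes, level classes and the removal of pseudogenes and USP6NL were chosen after seeing the data.

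With a pseudocount of 0.1 FPKM, which enlarges every ratio by construction, 4 members were at least 2-fold higher in the longer table (1 of them a USP gene), 4 USP genes were at least 1.5-fold higher and 3 members, all USP genes, at least 1.5-fold lower. At a mean of at least 5 FPKM, where fewer genes enter, 31 members were higher and 12 lower, and of the USP genes 10 were higher, 9 lower and 1 at least 1.5-fold higher. Among genes sharing no locus, again fewer, 13 members were lower and 8 at least 1.5-fold higher, 1 E2 enzyme was lower and 7 at least 1.5-fold higher, and 11 USP genes were lower and 1 at least 1.5-fold higher. Against density class medians no member was at least 2-fold higher (0 in all and 0 among E2 enzymes), 1 USP gene was at least 1.5-fold higher and 4 members, all USP genes, at least 1.5-fold lower, and the medians became 0.10 for all members, 0.31 for E2 enzymes and -0.024 for USP genes. Against level class medians 0 members (0 E2 enzymes) were at least 2-fold higher, 1 USP gene was at least 1.5-fold higher, 1 member, a USP gene, was at least 1.5-fold lower, and the median of all members became 0.088. The cause of these changes against class medians was not tested. Of all genes sharing no locus 40.8% were lower and 14.4% at least 1.5-fold higher. Shares of all genes are not given for the pseudocount of 0.1 FPKM, the filter at 5 FPKM or the class medians. Those counts describe the members only. Subtracting 0.05, the median without a level filter, turned the sign of 3 small ratios, those of USP48, USP22 and UBE2M, and left USP genes evenly divided at 21 higher and 21 lower. The E2 median ranged over all settings from 0.31 against density class medians to 0.48 among genes sharing no locus. Members near or below 1 FPKM rest on few fragments.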
